A study of Mus musculus with 34 samples.

Results

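The genes described here control the release of paused RNA polymerase II: Hexim1 and Larp7 of the inhibitory 7SK particle, Cdk9 with its cyclins Ccnt1 and Ccnt2, which form the kinase P-TEFb, and the BET bromodomain genes Brd2 and Brd3. These 7 genes were picked by name from the 52661 genes of the expression table, and their 140 splicing events from the 401633 events of the splicing table. They were chosen with their expression in these samples in view, so their levels are given as a description, without a test. The cells were N2A, an established mouse neuroblastoma line, treated for 24 h in a final 0.4% DMSO, and polyA RNA was sequenced in 34 libraries. DMSO alone had 3 libraries. The histone deacetylase (HDAC) inhibitors CI-994 at 5 µM, Vorinostat at 2.5 µM, and BRD4884 and BRD6688, both at 10 µM, had 2 libraries each, and 23 further compounds had 1 library each. The study classed the 27 compounds by their effect on the splicing of microexons, which are very short neuronal exons: 17 were activators, the HDAC inhibitors among them, and 10 were inhibitors. The inhibitors on which most values below turn, AW00693 at 5 µM and T5635931, T5758020, T5963258 and T5985871 at 6.7 µM each, are screening-library molecules whose target the study listed as unknown.

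P-TEFb phosphorylates the polymerase and the factors that hold it near the start of genes. Much of it is kept inactive by Hexim1 within a particle built on 7SK RNA, which Larp7 binds and protects, and is recruited to chromatin by BET proteins, which bind acetylated histones. Hexim1 is widely used as a transcript that responds when BET proteins or P-TEFb are perturbed, and HDAC inhibitors, which raise histone acetylation, are known to release P-TEFb from the particle.

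The neuroblastoma identity of the cells was checked with 9 sympathoadrenal and neuronal markers, of which 7 exceeded 1 RPKM in DMSO (RPKM, a read count scaled to transcript length and library size). Their summed level was 1099 RPKM in DMSO and lay between 694 RPKM with MK-1775 and 1493 RPKM with Trametinib. Nefl was at or under 1 RPKM. The summed fibroblast markers were at 0.58 RPKM in DMSO, and the highest value with a compound was 23.4 RPKM with CI-994. The immune and epithelial lists summed to 0.66 and 0.24 RPKM in DMSO and reached at most 5.33 RPKM with T5985871 and 1.72 RPKM with CI-994, and the glial list went from 3.50 RPKM in DMSO to at most 6.74 RPKM with A-443654. The part of these markers in the results below was not tested. Exon junction reads ranged from 33489679 to 75977986 per library.

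Hexim1 was the member with the widest range. The gene (ENSMUSG00000048878.6) is a single exon of 3495 bases in the GENCODE vM21 annotation, on chromosome 11 from 103116231 to 103119725 of GRCm38, plus strand, so it has no splicing event. The sequence just upstream of that start is shown because this gene's level is the central measurement. It is taken from the RefSeq promoter table (GRCm38.p6, plus strand, chr11:103116075-103116230), and the capitals mark a CCAAT box on the reverse strand and a GC box, GGGCGG.
Hexim1 upstream sequence: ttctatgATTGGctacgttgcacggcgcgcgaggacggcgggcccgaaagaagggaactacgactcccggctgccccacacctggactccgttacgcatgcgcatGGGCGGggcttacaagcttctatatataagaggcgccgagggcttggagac
Both strands of the 9 promoters listed for the 7 genes were searched, each from 250 bases before to 50 after the RefSeq start. GGGCGG was found in 8 of them, against 35.7% of all 32851 promoters, and CCAAT in 4, those of Ccnt2, Cdk9, Larp7 and Hexim1, against 37.4%. The letters TATAAA and the E box CACGTG occurred in none of the 9, against 13.6% and 7.15% of all promoters. The search took exact letters, so a near variant such as the TATATAAG in the printed Hexim1 sequence was not counted. The heat shock element core TTCNNGAA was present for Ccnt1 alone (8.52% of all promoters), and TGACGTCA, the cAMP response element, for Larp7 alone (1.79%). These are matches of letters and no measure of binding.

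Hexim1 stood at 11.2 RPKM in DMSO. The highest levels came with 3 of the 10 microexon inhibitors, at 67.7 RPKM with T5985871, 34.6 RPKM with AW00693 and 30.9 RPKM with T5635931. T5758020, at 19.17 RPKM, was the fourth among the inhibitors and stood beside the HDAC inhibitor BRD4884 at 19.20 RPKM. T5963258, given at the same dose as the other T compounds, had 12.3 RPKM. The other 5 inhibitors lay between 8.88 RPKM with 7678804 and 13.3 RPKM with MK-1775, on either side of the DMSO value. On the log2 scale of RPKM plus a pseudocount of 0.5, the ratio to DMSO was 2.55 for T5985871, 1.59 for AW00693, 1.43 for T5635931 and 0.75 for T5758020.

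Each of the HDAC inhibitors also gave a Hexim1 level above DMSO, though less so. The values were 19.20 RPKM with BRD4884, 18.2 RPKM with CI-994, 16.1 RPKM with Vorinostat and 15.9 RPKM with BRD6688, all higher than with any of the other 13 activators. Those 13 ran from 5.77 RPKM with Crenolanib, an inhibitor of PDGF receptors and the lowest value of all, to 13.8 RPKM with BTBS00065. Over the 27 compounds Hexim1 was above DMSO in 13 and below it in 14. Each condition has 1 merged RPKM value, so no spread between libraries is known for Hexim1, and neighbours in this order cannot be told apart.

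**Figure D1:**
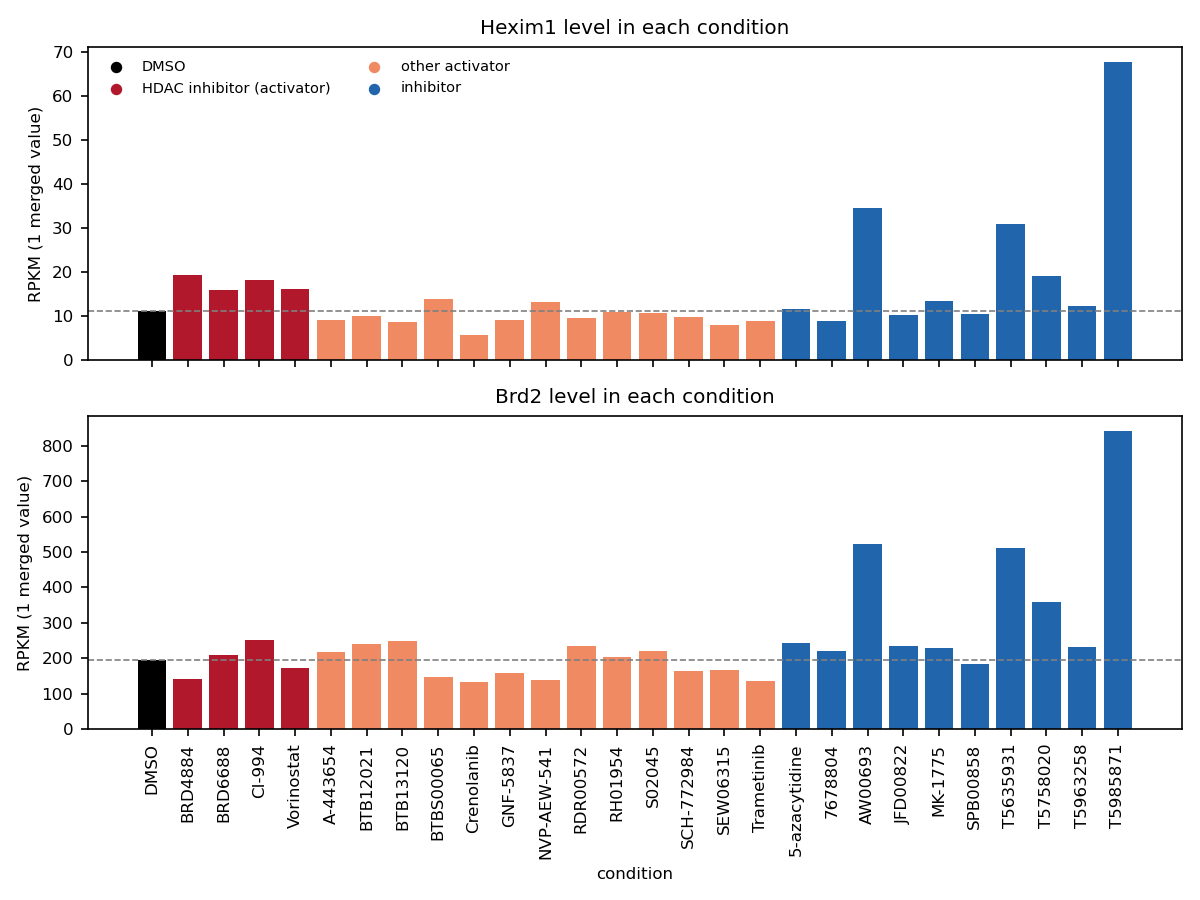
RPKM of Hexim1 (top) and Brd2 (bottom) in DMSO and with each of 27 compounds, 1 bar per condition and 1 merged value per bar, with the dashed line at the DMSO level. Hexim1 reached 67.7 RPKM and Brd2 842 RPKM with T5985871, and AW00693, T5635931 and T5758020 gave the next highest bars for Brd2.

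A gene was counted as higher or lower when its ratio to DMSO exceeded 2-fold and it had more than 5 RPKM in either condition. All 7 members passed this level filter with all 27 compounds, which gave 189 pairs of gene and compound. Of these, 7 pairs were higher and 3 lower (3.70% and 1.59%), against 2.67% and 3.86% of the 263092 pairs of all genes tested. Hexim1 accounted for 3 of the higher pairs, Brd2 for 3 and Cdk9 for 1, and the lower pairs were Larp7 with CI-994 and with Vorinostat, and Brd3 with Vorinostat. The median ratio of all genes above 5 RPKM was itself below DMSO by over 0.1 on the log2 scale with 14 compounds, down to -0.44 with CI-994 and -0.36 with Vorinostat. After subtraction of that median, 9 pairs were higher and 1 lower, against 3.72% and 2.25% of all genes. Hexim1 with CI-994 and with BRD4884 then passed 2-fold, and of the lower pairs, Larp7 with CI-994 remained at -1.29 on the log2 scale.

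**Figure D2:**
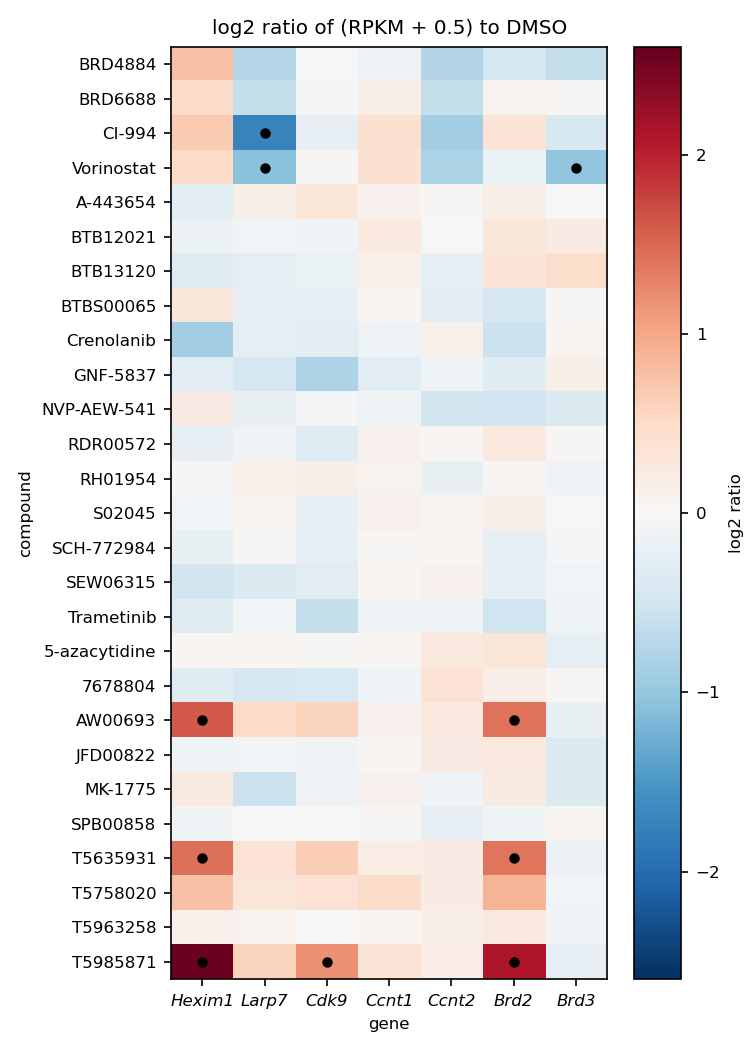
Log2 ratio of RPKM plus 0.5 to DMSO for the 7 genes (columns) with each of 27 compounds (rows); red is above and blue below DMSO, and black dots mark the 10 pairs past 2-fold. The dots for Hexim1 and Brd2 fall on AW00693, T5635931 and T5985871, and those for Larp7 on CI-994 and Vorinostat.

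Within single compounds, T5985871 had 3 of the 7 genes higher and none lower, against 6.05% and 8.42% of 9846 genes. AW00693 and T5635931 each had 2 higher and none lower, against 2.53% and 2.57% of 9727 genes for the former and 1.54% and 1.78% of 9689 genes for the latter. None of the 7 was more than 2-fold higher or lower with T5758020, where 1.14% and 1.60% of all genes were, or with T5963258, where 0.730% and 0.761% were. CI-994 had none of the 7 higher and 1 lower, against 10.2% and 26.1% of 10289 genes, and Vorinostat none higher and 2 lower, against 10.4% and 22.5% of 10204, so lower levels of that size were common with these HDAC inhibitors. No member passed 2-fold in either direction with BRD4884 (5.29% of all genes higher and 4.42% lower) or BRD6688 (5.14% and 6.75%). The members were chosen in view of these same ratios, which all share 1 DMSO value, so nothing further is read from the shares.

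Brd2, a BET protein that reads acetylated histones (chr17:34112023-34122634, GRCm38, minus strand), was the most abundant of the 7 at 196 RPKM in DMSO. It reached 842 RPKM with T5985871, 521 RPKM with AW00693, 512 RPKM with T5635931 and 360 RPKM with T5758020, the same 4 compounds that gave the highest Hexim1 levels among the inhibitors. The lowest values were 134 RPKM with Crenolanib, 137 RPKM with Trametinib and 138 RPKM with NVP-AEW-541, all kinase inhibitors. Unlike Hexim1, Brd2 did not stand on 1 side of DMSO with the HDAC inhibitors, at 252 RPKM with CI-994, 209 RPKM with BRD6688, 173 RPKM with Vorinostat and 142 RPKM with BRD4884.

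The spread between libraries was taken from the splicing table, as the reads that span exon junctions of a gene per 1000000 such reads in the library (junction RPM). This measure depends on the junctions the table lists, so it is compared within a gene only, and in these bulk samples a share of the library cannot tell fewer transcripts per cell from more RNA of other genes. For Brd2 the DMSO libraries gave 749, 721 and 730 RPM, or 733 ± 14.4 (SD, n = 3). T5985871 gave 2973 RPM, AW00693 1834, T5635931 1715 and T5758020 1248, each from a single library and each above every DMSO library and every HDAC inhibitor library. A single library lay above every DMSO library for 32.4% of all genes with T5985871 and with AW00693, 32.9% with T5635931 and 34.7% with T5758020. The CI-994 libraries stood at 1067 and 1078 RPM, the BRD6688 libraries at 775 and 783, and the BRD4884 libraries at 636 and 650. Vorinostat, whose merged RPKM was below DMSO, had libraries at 748 and 896 RPM, the first inside the DMSO range and the second above it.

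Cdk9, the catalytic subunit of P-TEFb (chr2:32705784-32713076, GRCm38, minus strand), stood at 27.8 RPKM in DMSO and at 63.6 RPKM with T5985871, 43.6 RPKM with T5635931, 41.7 RPKM with AW00693 and 36.2 RPKM with T5758020. Its lowest values were 15.7 RPKM with GNF-5837, an inhibitor of TRK receptors, and 17.8 RPKM with Trametinib, an inhibitor of MEK. The few junction reads of Cdk9, between 300 and 1036 per library, gave 10.3 ± 1.06 RPM in DMSO (SD, n = 3), 22.8 with T5985871, 15.04 with T5635931 and 14.4 with AW00693. A-443654, an AKT inhibitor, gave 15.1 RPM and 34.7 RPKM.

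Larp7, which holds the 7SK particle together (chr3:127536714-127553349, GRCm38, minus strand), stood below DMSO with each HDAC inhibitor, where Hexim1 stood above it. From 46.7 RPKM in DMSO it was at 13.8 RPKM with CI-994, 22 RPKM with Vorinostat, 27.8 RPKM with BRD4884 and 30.4 RPKM with BRD6688, the 4 lowest of all conditions. Per library, its junction reads were 90.6, 87.4 and 87.9 RPM in DMSO. CI-994 gave 32.5 and 35.3, Vorinostat 50.1 and 45.8, BRD4884 64.3 and 62.9, and BRD6688 63.7 and 59.9, so none of these 8 libraries reached the DMSO range. With the microexon inhibitors Larp7 was above DMSO where Hexim1 was highest, at 69.7 RPKM and 133 RPM with T5985871 and at 65.8 RPKM and 124 RPM with AW00693, none of it past 2-fold.

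The cyclins that pair with Cdk9, Ccnt1 (chr15:98538689-98570923, minus strand) and Ccnt2 (chr1:127774164-127808061, plus strand, both GRCm38), had different patterns. Ccnt1 was the steadiest of the 7, between 23.1 RPKM with GNF-5837 and 38.7 RPKM with T5758020 around 27.8 RPKM in DMSO. Its standard deviation over the compounds, 0.18 on the log2 scale, was smaller than that of all but 3.1% of 9397 expressed genes, whereas Hexim1 at 0.73 exceeded 94.6% of them and Brd2 at 0.63 exceeded 91.1%. The 7 genes were chosen in view of these same ratios, so nothing further is read from these places. Ccnt2 stood at 27.7 RPKM in DMSO and at 14.6, 15.5, 16.1 and 17.9 RPKM with CI-994, Vorinostat, BRD4884 and BRD6688, its 4 lowest values, while Ccnt1 was at 37.2 RPKM with CI-994 and 36.9 RPKM with Vorinostat. Per library, Ccnt2 had 44.8, 48.1 and 46.1 junction RPM in DMSO and between 31.96 and 42.03 in the 8 HDAC inhibitor libraries. Brd3, the other BET gene (chr2:27445579-27507662, minus strand), was at 44.2 RPKM in DMSO, at 21.4 RPKM with Vorinostat and at 60.8 RPKM with BTB13120, and with the microexon inhibitors it lay between 34.05 and 46.46 RPKM.

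**Figure D3:**
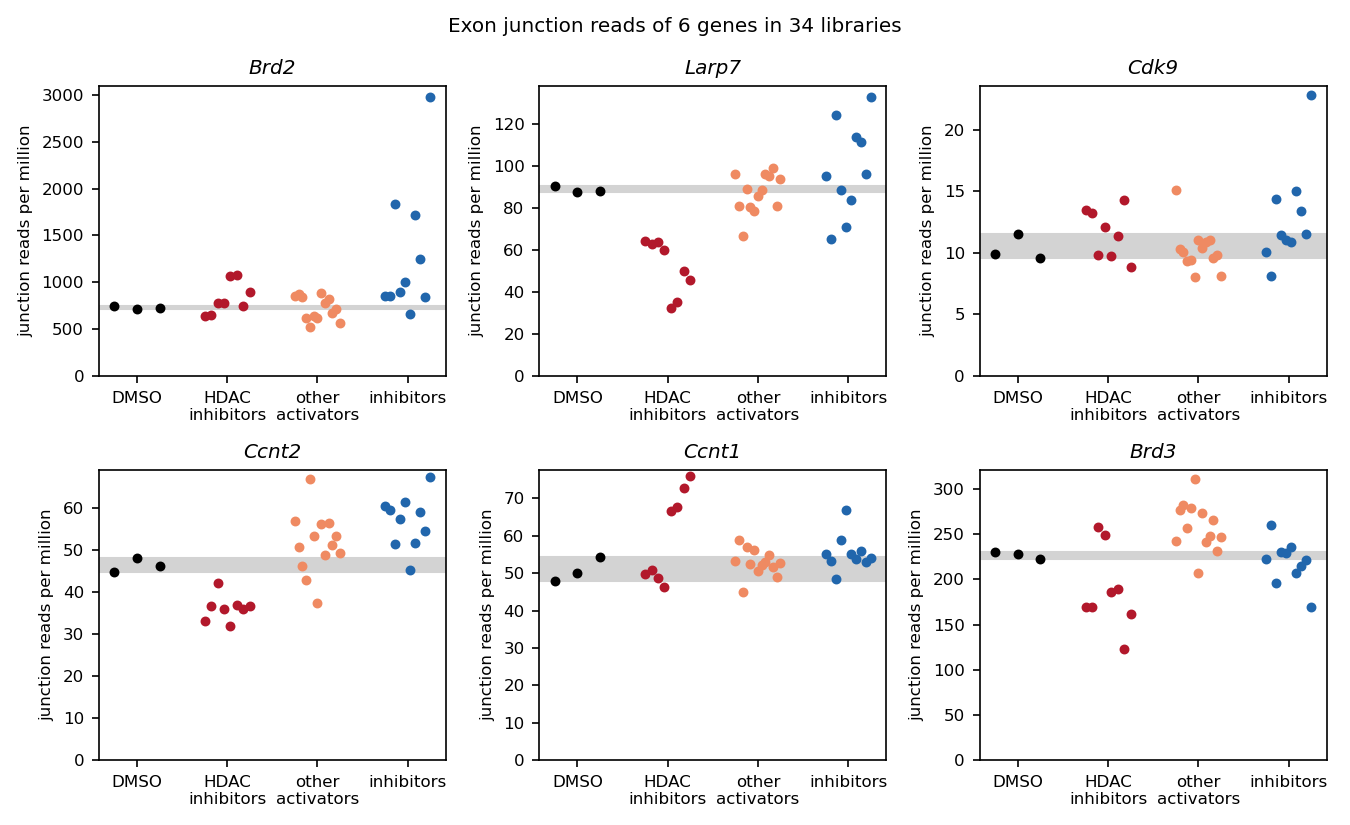
Exon junction reads per 1000000 junction reads of the library (RPM) for 6 of the genes, 1 point per library, with the grey band spanning the 3 DMSO libraries. Larp7 and Ccnt2 lie below the band in all 8 HDAC inhibitor libraries, and the highest Brd2, Cdk9 and Larp7 points, at 2973, 22.8 and 133 RPM, are all T5985871.

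Across the 6 genes with junctions and the 4 HDAC inhibitors, 24 pairs, both libraries lay above every DMSO library in 6 pairs and below in 12. Such separation was frequent in these libraries: of 9257 genes, 40.5% lay above and 46.6% below with CI-994, 37.9% and 42.2% with Vorinostat, 45.3% and 33% with BRD4884, and 42.2% and 37.9% with BRD6688. Against these shares the counts are no result about the members. An exact two-sided permutation test of 2 libraries against 3 cannot go below p = 0.2.

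BRD4884 and BRD6688, both derivatives of CI-994, were given at a matched dose of 10 µM and could be set side by side for 6 genes. Their libraries did not overlap for 4 of them, Cdk9, Ccnt1, Brd2 and Brd3, against 73.5% of all 9257 genes, and an exact test of 2 against 2 cannot go below p = 0.333. Brd3 showed the largest contrast, at 170 and 170 RPM with BRD4884 and 258 and 249 with BRD6688, the latter above the DMSO range of 223 to 231. CI-994 was given at 5 µM and is not compared with them.

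Genes with a pattern like that of Hexim1 were ranked by Pearson correlation of log2 RPKM over the 28 conditions, among 9336 other genes above 5 RPKM in at least 14 of them. The conditions share 1 DMSO value and the same cells, and a few compounds carry most of the range, so the coefficients are descriptive. The highest were Cdk2ap2 (0.94), which encodes a partner of CDK2, Hspa5 (0.94) and P4hb (0.92), chaperones of the endoplasmic reticulum, Sertad1 (0.93) and the stress gene Gadd45b (0.91). Gadd45b went from 6.21 RPKM in DMSO to 1128 RPKM with T5985871 and 443 RPKM with AW00693, and Hspa5 from 296 to 712 and 571 RPKM. The lowest coefficients were those of Krcc1 (-0.92), Tti1 (-0.90) and Abcf3 (-0.90), and Krcc1 stood at 52.2 RPKM in DMSO and 7.16 RPKM with T5985871. Among the members, Cdk9 (0.81) was 36th of the 9336 genes and Brd2 (0.79) 45th. Ccnt1 had 0.52, Larp7 0.21, Ccnt2 -0.06 and Brd3 -0.38. Without the HDAC inhibitors, over 24 conditions, Larp7 had 0.73 and Brd2 0.88. By Spearman correlation, which uses ranks only, several coefficients over the 28 conditions were lower. Cdk9 then had 0.685, Ccnt1 0.442, Brd2 0.417, Larp7 0.201, Ccnt2 -0.076 and Brd3 -0.606.

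The rest of the elongation machinery was examined with a list of 48 genes, of which 44 passed 5 RPKM with at least 1 compound and 21 passed 2-fold with at least 1. The share of all genes past 2-fold with at least 1 compound was not computed. CI-994 alone had 10.2% of all genes higher and 26.1% lower, so the count of 21 is no result about the list. Of 1162 gene and compound pairs tested, 4 were higher and 38 lower, 0.344% and 3.27%, below the 2.67% and 3.86% of all genes. CI-994 and Vorinostat held 24 of the 38 lower pairs. After centring on the median of all genes, 6 pairs were higher and 17 lower. With CI-994, 14 of 43 tested genes were lower (26.1% of all genes), with a list median of -0.51 on the log2 scale beside -0.44 for all genes.

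Of 4 genes listed with the 7SK particle and its relatives, 3 were more than 2-fold lower with at least 1 HDAC inhibitor and none with BRD6688. Of all genes, 26.1% were lower with CI-994, 22.5% with Vorinostat, 4.42% with BRD4884 and 6.75% with BRD6688. The share of all genes lower with at least 1 HDAC inhibitor was not computed, so nothing further is read from the count. Mepce, the enzyme that caps 7SK RNA, went from 16.2 RPKM in DMSO to 6.58 RPKM with Vorinostat, and Hexim2, the paralogue of Hexim1, from 8.34 to 2.75 RPKM with CI-994 and 3.38 RPKM with BRD4884. The RNA helicase Ddx21, at 213 RPKM in DMSO, stood between 114 and 153 RPKM with the HDAC inhibitors and did not pass 2-fold with any of them. Jmjd6, a BET partner, stood at 68.5 RPKM in DMSO and at 29.2 and 28.9 RPKM with CI-994 and Vorinostat. The elongation factor Tcea1 went from 187 RPKM to 61.1 and 76.6 RPKM with CI-994 and Vorinostat, and the histone chaperone subunit Ssrp1 from 268 RPKM to 80.4 and 73.5 RPKM, while it was at 734 RPKM with T5985871. The bromodomain genes Brd8 and Brd9 were at 21.63 and 11.99 RPKM with CI-994, from 70.4 and 33.3 RPKM in DMSO. Once the median of all genes was subtracted, Mepce, Jmjd6 and Brd9 no longer passed 2-fold with either CI-994 or Vorinostat, nor did Tcea1 with Vorinostat or Hexim2 with BRD4884, whereas Ssrp1 and Brd8 did with both and Hexim2 with CI-994.

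Nelfe, a subunit of the pausing complex NELF, was the list gene past 2-fold with the most compounds, lower with 6. From 30.1 RPKM in DMSO it was at 9.52 RPKM with CI-994, 10.3 RPKM with AW00693, 12.6 RPKM with T5635931, 13.8 RPKM with T5758020, 13.9 RPKM with T5985871 and 14.1 RPKM with Vorinostat. Ssu72, a phosphatase of the polymerase tail, was lower with 4 inhibitors: from 102 RPKM in DMSO it was at 29.2 RPKM with T5985871, 39.6 RPKM with AW00693, 40.5 RPKM with T5635931 and 44.5 RPKM with T5758020. These are the 4 compounds with the highest Brd2 levels. After centring, Nelfe no longer passed 2-fold with Vorinostat and T5985871, and Ssu72 did with all 4.

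Splicing of the members was measured as percent spliced in (PSI), the share of reads that support inclusion of an exon, the later splice site, or retention of an intron. Counting each pair of complementary splice sites once left 123 events, of which 100 passed the coverage filter in DMSO: 30 of Brd3, 20 of Brd2, 17 of Ccnt2, 16 of Larp7, 14 of Ccnt1 and 3 of Cdk9. A change was called at 10 PSI or more with a posterior probability above 0.95 from the reads, which covers counting error only where a compound has 1 library. Of 2603 event and compound pairs tested, 40 were called (1.54%), against 1.20% of 4666188 pairs over all events. When each DMSO library was set against the other 2, none of the 93 to 98 member events tested was called, against 0.783%, 0.779% and 0.780% of all events. Ccnt2 held 24 of the 40 calls, 5.74% of its pairs, Brd3 14 and Ccnt1 2, while Brd2, Larp7 and Cdk9 held none.

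Of these, 13 calls were of a single choice in Ccnt2, between alternative donors of a 46-base exon (mm9 chr1:129694418-129694773). The long form adds 310 bases of the following intron. In the GENCODE vM21 transcripts (GRCm38, plus strand, chr1:127797841-127798196), read on from the coding frame of Ccnt2-201, the extension meets a stop codon after 183 residues in place of the 723 of the full protein. The exon is shown in lower case and the start of the extension, up to and with that stop codon TGA, in capitals.
Ccnt2 exon with the start of its extension: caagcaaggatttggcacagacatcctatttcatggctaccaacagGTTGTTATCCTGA

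The long form was the more common one in DMSO, at 65.8, 60.6 and 64.9 PSI in the 3 libraries, from 149, 137 and 77 reads, or 63.8 ± 2.79 (SD, n = 3). It was called lower with 8 compounds. The lowest value was 28.2 PSI with BTB12021 (95% Wilson interval 19.04 to 39.54 from 71 reads), followed by 45.6 PSI with S02045 (37.1 to 54.3) and 45.8 PSI with A-443654 (37.8 to 54.0). BTB12021 was given at 20 µM, S02045 at 5 µM and A-443654 at 0.25 µM, so this order is not one of matched doses. Crenolanib, RDR00572, BTB13120, RH01954 and 5-azacytidine lay between 50.6 and 53.5 PSI. Those values all lie below the DMSO libraries.

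The long form was called higher with 5 compounds, at 80.8 PSI with T5985871 (74.0 to 86.1), 76.7 PSI with AW00693, 75.0 PSI with T5758020, 73.9 PSI with T5635931, and 73.4 and 75.5 PSI in the Vorinostat libraries. The inhibitors in this list are again the 4 with the highest Brd2 levels. The 8 compounds with less of the long form comprised 7 activators and the inhibitor 5-azacytidine. With BTB12021 the level of Ccnt2 was 27.4 RPKM, beside 27.7 RPKM in DMSO, and with T5985871 31.6 RPKM. The BRD4884 libraries, at 52.4 and 67.4 PSI, differed from each other by more than any pair of DMSO libraries did, and the CI-994 libraries were at 66.7 and 65.3 PSI.

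**Figure D4:**
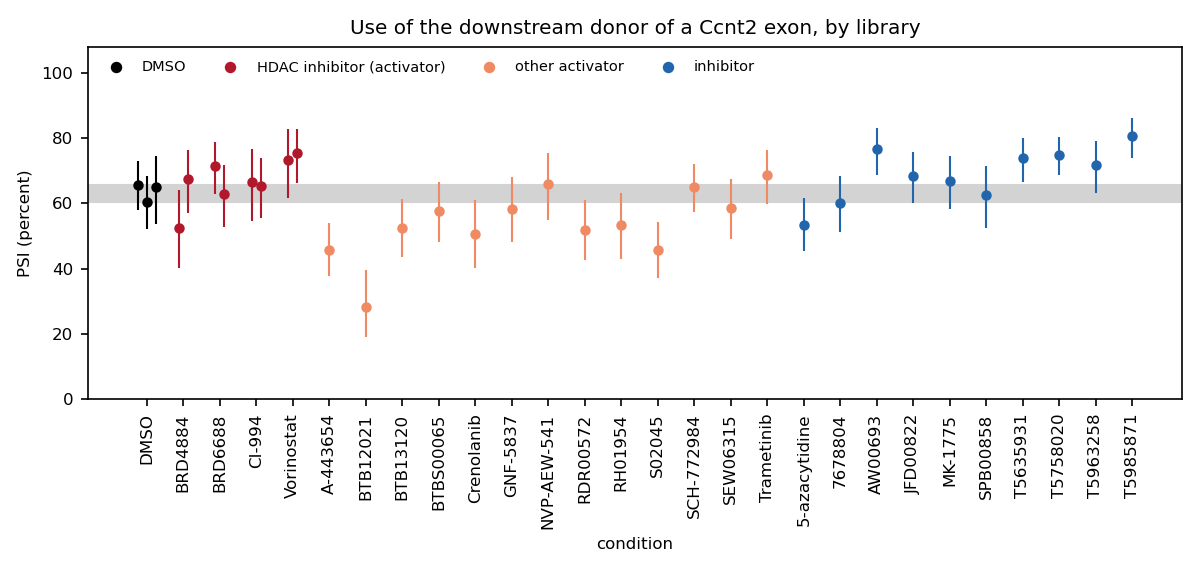
PSI of the downstream donor of the Ccnt2 exon, 1 point per library with its 95% Wilson interval (counting error only), and a grey band over the 3 DMSO libraries. BTB12021 is lowest at 28.2 PSI and T5985871 highest at 80.8 PSI.

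The exon just before it in Ccnt2-201, of 63 bases and 21 codons (mm9 chr1:129691832-129691894), was included at 87.6, 90.6 and 90.1 PSI in DMSO. It was called lower with AW00693 at 68.8 PSI (62.98 to 74.17 from 260 reads), T5758020 at 77.0 PSI and MK-1775, a WEE1 inhibitor, at 78.3 PSI, and higher with Crenolanib, where every counted read included it. The 61-base exon before that was called lower with AW00693 alone, by 10.3 PSI from 97.9 PSI in DMSO. In Ccnt1, a 164-base exon (mm9 chr15:98377176-98377339) was at 94.4, 96.4 and 91.3 PSI in DMSO and was called lower with AW00693 at 83.6 PSI and T5985871 at 83.2 PSI. Skipping it breaks the reading frame, with a stop codon after 184 residues of the 724 of Ccnt1-201. A 715-base Ccnt2 intron (mm9 chr1:129670963-129671677) was retained at 26.5 and 17.9 PSI in the Vorinostat libraries and 23.3 and 10.6 PSI in those of CI-994, against 6.12 and 6.98 PSI in the DMSO libraries that passed and 8.87 PSI in the one that did not.

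A 189-base Ccnt2 exon was called higher with T5985871 at 27.2 PSI, against 8.07 and 14.3 PSI in the DMSO libraries that passed and 17.5 PSI in the one that did not. A 4-base donor shift in Brd3 was at 83.1 PSI with T5985871, against at least 97.55 PSI in each DMSO library. Other calls in Brd3 came from a pair of neighbouring introns and an alternative donor between them (mm9 chr2:27308595-27309832), which held 13 of its 14 calls. They rest on 18 to 44 reads in the compound libraries that passed, and on 2 of the 3 DMSO libraries, with 26 to 59 reads. The third DMSO library, which failed the filter with 13 or 14 reads, was at 22.57 PSI for the donor, just under the values called of 22.84 and 27.45 PSI. For the 325-base intron it was at 16.7 PSI, inside the range of the values called, and for the 862-base intron it was at 0 PSI, below all of them. A donor 4 bases apart in Ccnt2 was called with 7678804 at 87.0 PSI and 5-azacytidine at 89.8 PSI, from 54 and 49 reads, beside 91.3 PSI in the DMSO library that did not pass.

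The gene with the highest level also has an exon that ends its reading frame, and it was read at a depth that allows small differences to be seen. The 92-base exon of Brd2 (mm9 chr17:34253543-34253634, and chr17:34116598-34116689 on the minus strand of GRCm38) belongs to 1 annotated transcript, Brd2-207, which is marked for nonsense-mediated decay, and to no coding one. With it, the frame closes in the next exon after 146 residues in place of the 798 of Brd2-201. The exon is in capitals and the next exon, up to and with the stop codon TAA, in lower case.
Brd2 exon and the next bases: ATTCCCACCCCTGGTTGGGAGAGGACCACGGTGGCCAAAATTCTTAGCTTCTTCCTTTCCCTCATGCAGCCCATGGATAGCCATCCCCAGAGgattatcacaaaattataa

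Inclusion of this exon was 8.96, 9.20 and 8.61 PSI in DMSO, from 1942 to 3723 reads per library. No compound raised it by 10 PSI, and from these levels a fall of that size was not possible. The HDAC inhibitor libraries lay between 6.57 and 8.82 PSI with a median of 6.69, and all of them but the second BRD4884 library were below every DMSO library. Both libraries lay below DMSO with CI-994, Vorinostat and BRD6688. Of the 148 exons with at least 1000 reads in the DMSO and HDAC inhibitor libraries and a DMSO mean between 5 and 95 PSI, 18.2%, 17.6% and 20.3% did so with these compounds, and 15.5% with BRD4884. The 10 inhibitor libraries ran from 7.81 PSI with SPB00858 to 11.7 PSI with T5963258, with a median of 10.2.

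The 4 compounds with the highest Brd2 levels had inclusion above every DMSO library, at 10.48 PSI with T5985871 (9.89 to 11.1), 10.79 PSI with AW00693, 10.37 PSI with T5635931 and 9.60 PSI with T5758020. Values of that size also came with lower Brd2 levels, such as 10.52 PSI with GNF-5837 at 158 RPKM, and T5963258, at 232 RPKM, had the highest value. Of the other inhibitors, 5-azacytidine at 11.57 PSI, JFD00822 at 10.01 PSI and 7678804 at 9.23 PSI were also above every DMSO library. MK-1775 and SPB00858 were not. The share of all exons placed above DMSO in this way was not computed, so nothing further is read from these positions. The lowest inclusion was 5.43 PSI with RDR00572 (4.64 to 6.31), where Brd2 stood at 233 RPKM.

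**Figure D5:**
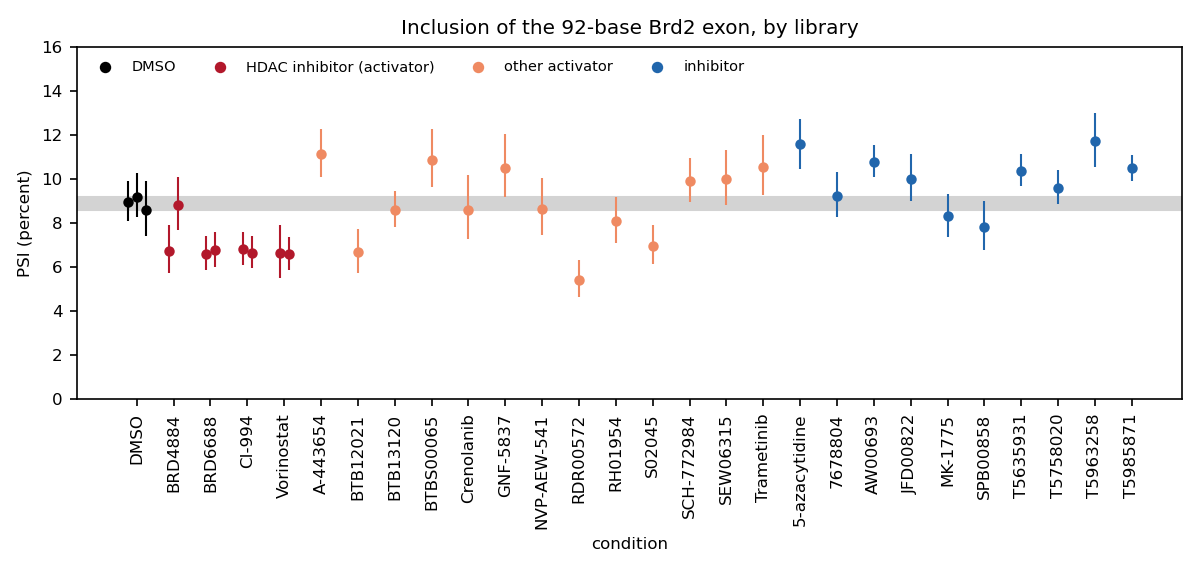
Inclusion (PSI) of the 92-base Brd2 exon, 1 point per library with its 95% Wilson interval (counting error only), and a grey band over the 3 DMSO libraries. HDAC inhibitor libraries are mostly near 6.7 PSI, below the band at 8.61 to 9.20, and RDR00572 is lowest at 5.43 PSI.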

How the data were processed

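PolyA RNA-seq of 34 N2A libraries was analysed from the deposited tables. Splicing values, deposited as percent spliced in (PSI), were computed by the authors using vast-tools in mm9 coordinates, with the inclusion and exclusion reads of each event after a mappability correction. The authors made the deposited RPKM values from Salmon estimates summed to genes (version 0.10.2 in the submitters' processing notes), with the libraries of a condition merged, so expression has no value per library. Of 52661 gene IDs, 95.7% carry the same version in GENCODE vM21. The deposited fold changes, p-values and FDRs of the authors' own edgeR comparisons, and their pooled PSI table with calls, were not used.

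The genes and lists were chosen with earlier results of these data known, so no test was run on them. Ratios used a pseudocount of 0.5 RPKM, and more than 2-fold with over 5 RPKM in either condition was counted. Events needed a coverage score of LOW or better, balanced reads for exons (microexons and alternative splice sites have no such balance label), or for introns 15 reads and a balance p above 0.05, in 2 of the 3 DMSO libraries and at least 1 library of a compound. Changes were called at 10 PSI with a posterior probability above 0.95, from 2000 draws of a beta distribution per library with a prior of 1 read each. Junction reads are inclusion plus exclusion reads of a gene's exon events, with background from genes with a mean of at least 100 such reads in DMSO. Named were the 7 genes, up to 10 list genes by the number of compounds past 2-fold, the 5 genes most and the 3 least correlated with Hexim1, and called member events, up to 10 by number of compounds; Ddx21, the 61-base Ccnt2 exon and the 92-base Brd2 exon fall outside this rule and were chosen after their values were seen. Some genes that the rule names are not reported here. The study describes the repeat libraries of DMSO and the HDAC inhibitors as biological replicates. It gives 2 for DMSO, where the labels give 3 libraries, all used here. Events given in mm9 were matched to GENCODE vM21 exons on GRCm38 by gene and exon length, with no conversion of coordinates. Wilson intervals (95%) cover counting error only. Python 3.11.15 with numpy 2.4.6, pandas 2.3.3 and scipy 1.17.1 was used. Alternatives were other pseudocounts, filters, thresholds and centring, each library of DMSO and of the HDAC inhibitors left out, and a replicate block.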

Additional observations from a re-analysis of the deposited data

How the results depend on the processing

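Expression counts held within 1.5 times under pseudocounts of 0.1 and 1 RPKM. Centring on the median of all genes moved the compounds with Hexim1 past 2-fold from 3 to 5, the lower member pairs from 3 to 1 and the lower list pairs from 38 to 17. At 1.5-fold, Hexim1 was higher with 6 compounds and lower with 1, 12 member pairs were higher and 13 lower, and 18 list pairs were higher and 105 lower. The 4 higher list pairs became 8 with a filter of 1 RPKM and 12 with none. Of the 5 genes most like Hexim1, 1 was among the first 5 by Spearman correlation, 4 were without the HDAC inhibitors and 5 with a pseudocount of 1 RPKM. Of the 10 member pairs past 2-fold, none changed direction in the 6 settings tried, and of 60 values 58 kept their call, the exceptions being Larp7 and Brd3 with Vorinostat after centring. The 1.5-fold threshold, the filter of 1 RPKM and the absence of a filter leave these ratios unchanged and only loosen the rule. Those settings could not lose a call, so only the pseudocounts and the centring put the calls to a check.

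The 40 member splicing calls became 18 at 15 PSI and 24 at a posterior of 0.99, and ranged from 29 to 40 when a library was left out, the lowest without DMSO replicate A. Same-lettered HDAC inhibitor and DMSO libraries share no more than a letter by the labels, and deviations of same-lettered libraries correlated between -0.025 and 0.014. With the replicate block, 39 calls were made. Without 1 library, 6 to 8 gene and HDAC inhibitor pairs lay above every DMSO library in junction reads and 12 to 14 below. Raw reads in place of corrected ones were not run, since the quality strings hold corrected reads for exons. Low read counts limit the Brd3 introns, the 4-base Ccnt2 donor and Cdk9, and the single library of 23 compounds leaves their values without a replicate check.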

Other observations

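Brd2 and Hexim1 correlated with each other at 0.79. Genes with a pattern like that of Brd2 were ranked in the same way as for Hexim1. Over the 28 conditions and 9336 other genes, chosen after the values were seen, its highest Pearson coefficients were with Ppp2r2a (0.93), a regulatory subunit of a phosphatase, the RNA-binding gene Rbm38 (0.93), Bms1 (0.92), Sde2 (0.91) and Rnf19b (0.91), none of which was among the 5 for Hexim1. Rbm38 went from 40.6 RPKM in DMSO to 271 RPKM with T5985871 and 160 RPKM with AW00693, and stood at 27.4 RPKM with Crenolanib. The lowest coefficient was that of Nagk (-0.93), at 20.4 RPKM in DMSO, 4.88 RPKM with T5985871 and 34.7 RPKM with Crenolanib. Hexim1 was the 104th gene by likeness to Brd2, and Brd2 the 45th by likeness to Hexim1. Lists of 5 genes that do not overlap cannot show that these patterns differ.

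Of the list genes past 2-fold that the report does not describe, Supt5, which forms the pausing and elongation factor DSIF, stood at 49.6 RPKM in DMSO and 130 RPKM with T5985871, and Aff1, a scaffold of the super elongation complex, at 14.7 RPKM in DMSO and 40.8 RPKM with BTB13120. Eaf2, an ELL-associated factor, was at 0.35 RPKM in DMSO and 5.55 RPKM with Vorinostat. These 3 were chosen after their values were seen.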
